A study of Mus musculus with 9 samples.

Results

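The Notch receptors Notch1, Notch2 and Notch3, their ligands Dll1, Dll4, Jag1 and Jag2, and the target genes Hes1, Hey1 and Hey2 were examined in RNA of whole mouse uterus on gestation day (GD) 3.5, shortly before the embryo implants. The 10 genes were chosen by name as components of the Notch pathway. All probe sets annotated to these genes and to no other gene were kept, which gave 17 of 45037 probe sets and 10 of 18193 genes. A probe set is a group of short probes that together read a transcript. The 9 arrays fell into 3 groups of 3. Control mice carried floxed Mig-6, or floxed Mig-6 and floxed Erbb2, without cre, and the sources used here do not say which control array had which genotype. Mig-6 d/d mice (Pgr cre/+ Mig-6 f/f) lacked Mig-6, the inhibitor of ERBB receptors listed as Errfi1 in the annotation, in cells that express the progesterone receptor gene Pgr. The double mutant, labelled Mig-6 d/d Erbb2 d/d, carried floxed alleles of both genes with Pgr cre/+ and lacked the receptor tyrosine kinase Erbb2 in the same cells as well. Both mutant genotypes carried cre at 1 copy of Pgr, which the controls did not, and all mice were on a mixed C57BL/6 and 129P2/OlaHsd background. The study's methods describe adult mice, whereas the labels give 2 weeks of age. RNA of several mice was pooled for each genotype. No source used here says that arrays of 1 group came from different pools, and p-values may then reflect only technical spread.

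Notch receptors are cut when a ligand on a neighbouring cell binds them, and the freed intracellular part enters the nucleus and joins the DNA-binding protein RBPJ to activate genes such as those of the HES and HEY families. Hes1, Hey1 and Hey2 encode transcriptional repressors of that kind, and Hes1 is also induced by other signals. In the uterus the pathway is known for parts in implantation and in decidualization, the change of stromal cells after the embryo attaches, and Notch3 is known from the muscle cells and pericytes of blood vessels.

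The values are intensities on a linear scale, and probe sets were compared only with themselves. The summed marker levels below add different probe sets, and the brightest genes of a list weigh most in them. A call, as used here, needed a limma p under 0.05 after Benjamini-Hochberg adjustment over the whole array and a change above 1.5-fold. Errfi1, at its brighter probe set, read 286.0 to 564.5 in controls, 15.1 and 16.0 in Mig-6 d/d replicates 1 and 2, and 29.8 to 76.1 in the double mutant. The array that carries the label Mig-6 d/d replicate 3 read 254.6 for Errfi1, close to the lowest control. At the dimmer Errfi1 probe set that array read 37.0, within the controls (33.7 to 65.1), whereas replicates 1 and 2 read 11.2 and 10.01 and the double mutant 12.8 to 20.7. Over all probe sets, log2 values of that array had a Pearson r of 0.994 and 0.990 with Mig-6 d/d replicates 1 and 2. With the controls its r was 0.978 to 0.984. Errfi1 itself was not called in Mig-6 d/d against control at either probe set (limma adjusted p = 0.0719 and 0.0753). The members, the other pathway genes and the counts of called markers are therefore also given without that array, while summed marker levels and similar genes are given with all arrays. Leaving it out lowered the calls over all 45037 probe sets, in either direction. They fell from 1265 to 419 in Mig-6 d/d against control and from 2312 to 1458 in the double mutant against Mig-6 d/d. Erbb2 read 29.4 to 45.7 in controls, 39.5 to 46.5 in Mig-6 d/d and 9.88 to 18.5 in the double mutant. The position of these probes with respect to the deleted exons is not known here. In whole uterus, fewer cells of a type and less RNA per cell cannot be told apart.

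Hes1 was the only member called with all 9 arrays. It was called increased in Mig-6 d/d uteri and decreased in the double mutant relative to Mig-6 d/d, and none of the receptors or ligands was called in any of the 3 comparisons. In the 9 fits that left out 1 array, the decrease was called in 9 and the increase in 4. Without Mig-6 d/d replicate 3 the increase was not called, and the receptor Notch3 was called decreased against control. Of the 17 member probe sets, 1 was called increased in Mig-6 d/d against control, where 1.71% of all probe sets were, and 0 decreased, where 1.09% of all probe sets were. The comparison of the double mutant with Mig-6 d/d called 1 decreased and 0 increased, against 2.75% and 2.38% of all probe sets. Between the double mutant and control, 0 were called, against 0.198% increased and 0.16% decreased overall. These shares of called members came from 1 gene, and the counts are too small to set the members apart from the rest of the array.

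**Figure D1:**
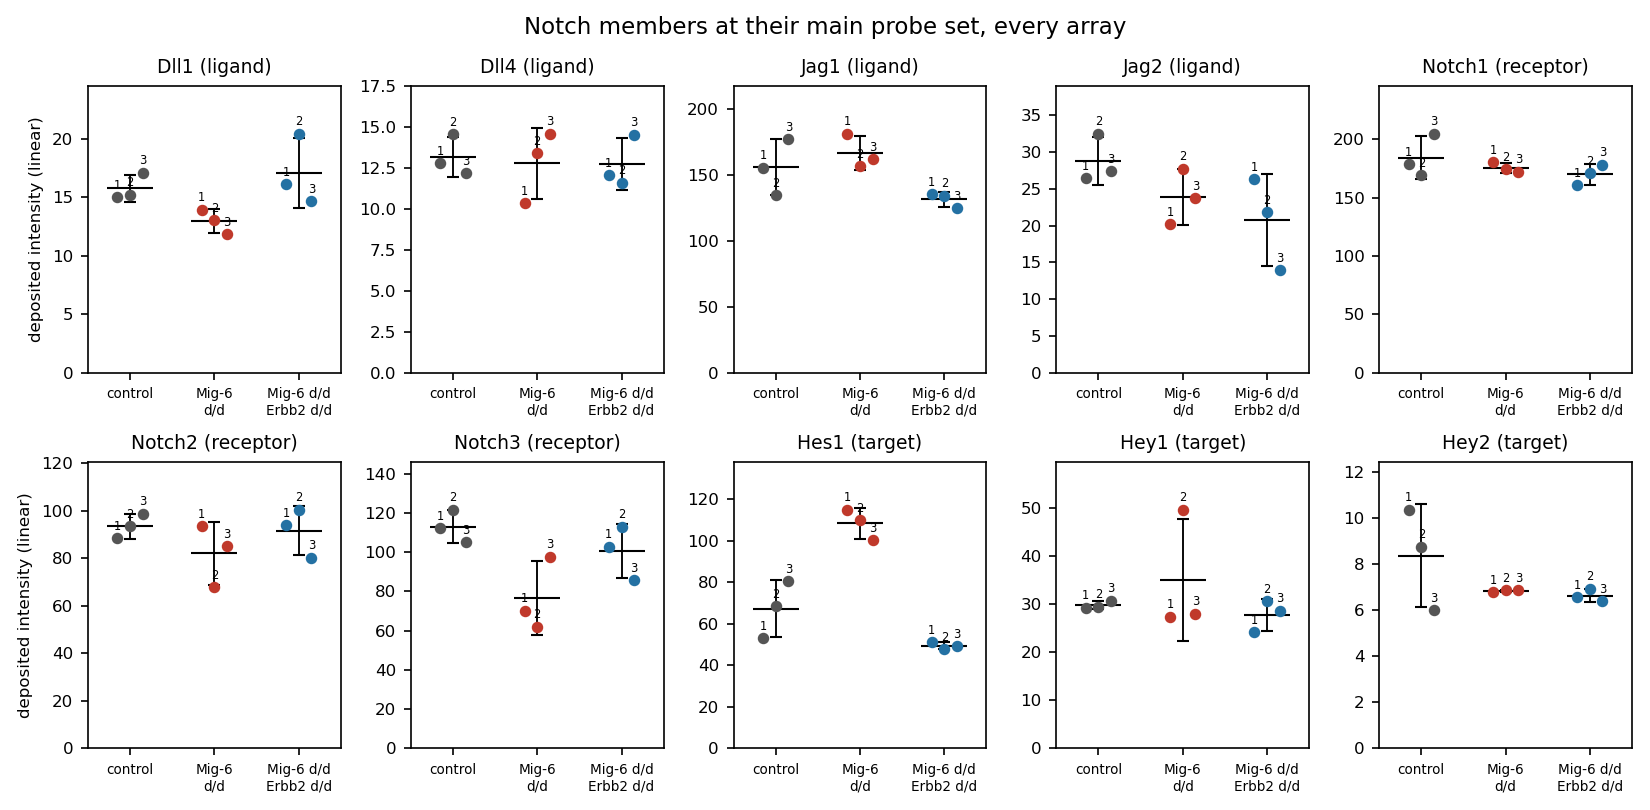
Deposited intensity (linear scale, starting at 0) of the 10 members at each gene's brightest probe set, for each of the 9 arrays, with the replicate number above each point and the mean and SD of 3 arrays in black. The 3 Mig-6 d/d arrays of Hes1 lie between 100.2 and 115, above all controls, and the double mutant lies between 47.7 and 51.1, below all controls, whereas for most other members the groups overlap.

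Hes1 encodes a repressor that is a direct target of Notch and was read by 1 probe set (1418102_at). Its intensity was 53.0, 68.5 and 80.4 in the controls, 115, 109.8 and 100.2 in Mig-6 d/d replicates 1, 2 and 3, and 51.1, 47.7 and 49.3 in the double mutant. The order of the levels was Mig-6 d/d, control and double mutant, and no array of a group overlapped with those of the next. The controls were the most spread of the groups, and their lowest array stood next to the double mutant.

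Relative to control, Hes1 was 1.63-fold higher in Mig-6 d/d (log2 fold change 0.71 ± 0.14 (SE), limma adjusted p = 0.0297). Relative to Mig-6 d/d, it was 2.19-fold lower in the double mutant (-1.13 ± 0.14, limma adjusted p = 0.003). The difference between the double mutant and control, -0.43 ± 0.14, did not pass (limma adjusted p = 0.432, 95% interval -0.74 to -0.11), so these neighbours in the order were not shown to differ.

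The decrease between these mutants was called in all 9 fits that left out 1 array, at log2 fold changes of -1.19 to -1.09. The increase over control was called in 4 of these 9 fits. It was not called without control replicate 1 (log2 fold change 0.54, which is below 1.5-fold), control replicate 2 (limma adjusted p = 0.0793), Mig-6 d/d replicate 1 (0.0987), Mig-6 d/d replicate 2 (0.0646) or Mig-6 d/d replicate 3 (0.0692), although the log2 fold change itself stayed between 0.54 and 0.84. Without Mig-6 d/d replicate 3, the array with the highest Errfi1 of its group, the increase was 0.76 and the decrease in the double mutant was -1.19 (limma adjusted p = 0.0107).

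Markers of epithelium moved in the same direction as Hes1. Of 15 measured epithelial markers, 8 were called increased in Mig-6 d/d against control and 11 were called decreased in the double mutant against Mig-6 d/d. Their summed intensity was 3454 to 6077 in controls, 8798 to 13050 in Mig-6 d/d and 3114 to 4408 in the double mutant. The control array with the highest Hes1, replicate 3, also had the highest epithelial sum of its group, whereas in Mig-6 d/d the array with the lowest Hes1, also replicate 3, had the highest epithelial sum. The keratin gene Krt7 (log2 fold change 2.61), the claudin gene Cldn7 (2.15) and the keratin gene Krt19 (1.92) had the largest called increases. Without Mig-6 d/d replicate 3 the called increases fell from 8 to 2 and the called decreases from 11 to 8, with list medians of 1.25 in place of 1.44 and -1.21 in place of -1.48. Over all probe sets, calls in either direction fell from 1265 to 419 and from 2312 to 1458 in the same comparisons, so fewer calls were not particular to these markers. The part of the epithelial markers in the Hes1 difference was not tested.

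Unlike Hes1, Hey1 and Hey2 were not called in any comparison. Hey1, a repressor with known parts in blood vessels and heart, read 29.3, 29.5 and 30.8 in controls, 27.5, 49.8 and 28.1 in Mig-6 d/d and 24.2, 30.7 and 28.7 in the double mutant (1415999_at). Mig-6 d/d replicate 2 stood above the other 8 arrays. Mig-6 d/d replicates 1 and 3 lay below all controls, and the double mutant overlapped with both groups. The log2 fold changes were 0.18 ± 0.20 in Mig-6 d/d against control (limma adjusted p = 0.734) and -0.28 ± 0.20 in the double mutant against Mig-6 d/d (0.517). Without Mig-6 d/d replicate 2, the difference from control turned to -0.10, and the difference between the mutants was -0.0024. Without Mig-6 d/d replicate 3, these differences were 0.31 and -0.42, in the directions of Hes1 and again not called.

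Hey2, the third of these repressors, was dim. It read 10.4, 8.75 and 5.98 in controls, 6.78 to 6.87 in Mig-6 d/d and 6.39 to 6.92 in the double mutant (1418106_at), against a median over all probe sets of 7.87 to 8.24 per array. Control replicates 1 and 2 were above the other arrays and control replicate 3 was the lowest of all. The 95% intervals of the differences from control, -0.63 to 0.12 in Mig-6 d/d and -0.68 to 0.08 in the double mutant, include 0, and no change was called.

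Hey2 was also the only one of the 8 members with an entry in the promoter table used here whose window held the core of the RBPJ motif, TGGGAA, read on both strands. Hes1 and Hey1 had no entry. Windows ran from 250 bases before to 50 bases after the start of the gene, and TGGGAA occurred in 25.6% of 32851 windows and the longer GTGGGAA, which contains it, in 6.38%. The Hey2 window held 2 copies of TGGGAA, 1 of them before the start. Together with the letter c printed after it, the copy before the start also reads as the longer GTGGGAA. The 250 bases before the start of Hey2 are shown because the search turned on them (RefSeq, build GRCm38.p6, chr10:30842784-30843033, minus strand, printed 5′ to 3′ along the gene), with the copy 207 bases before the start in capitals, where the motif lies on the opposite strand:

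Hey2: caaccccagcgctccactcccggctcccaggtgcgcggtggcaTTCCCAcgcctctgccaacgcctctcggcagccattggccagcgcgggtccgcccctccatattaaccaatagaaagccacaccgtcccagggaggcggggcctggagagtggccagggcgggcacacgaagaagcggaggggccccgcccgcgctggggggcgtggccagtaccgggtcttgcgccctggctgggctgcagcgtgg

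The match is a description of these letters and not of a bound site, and the arrays showed no called change of Hey2.

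**Figure D2:**
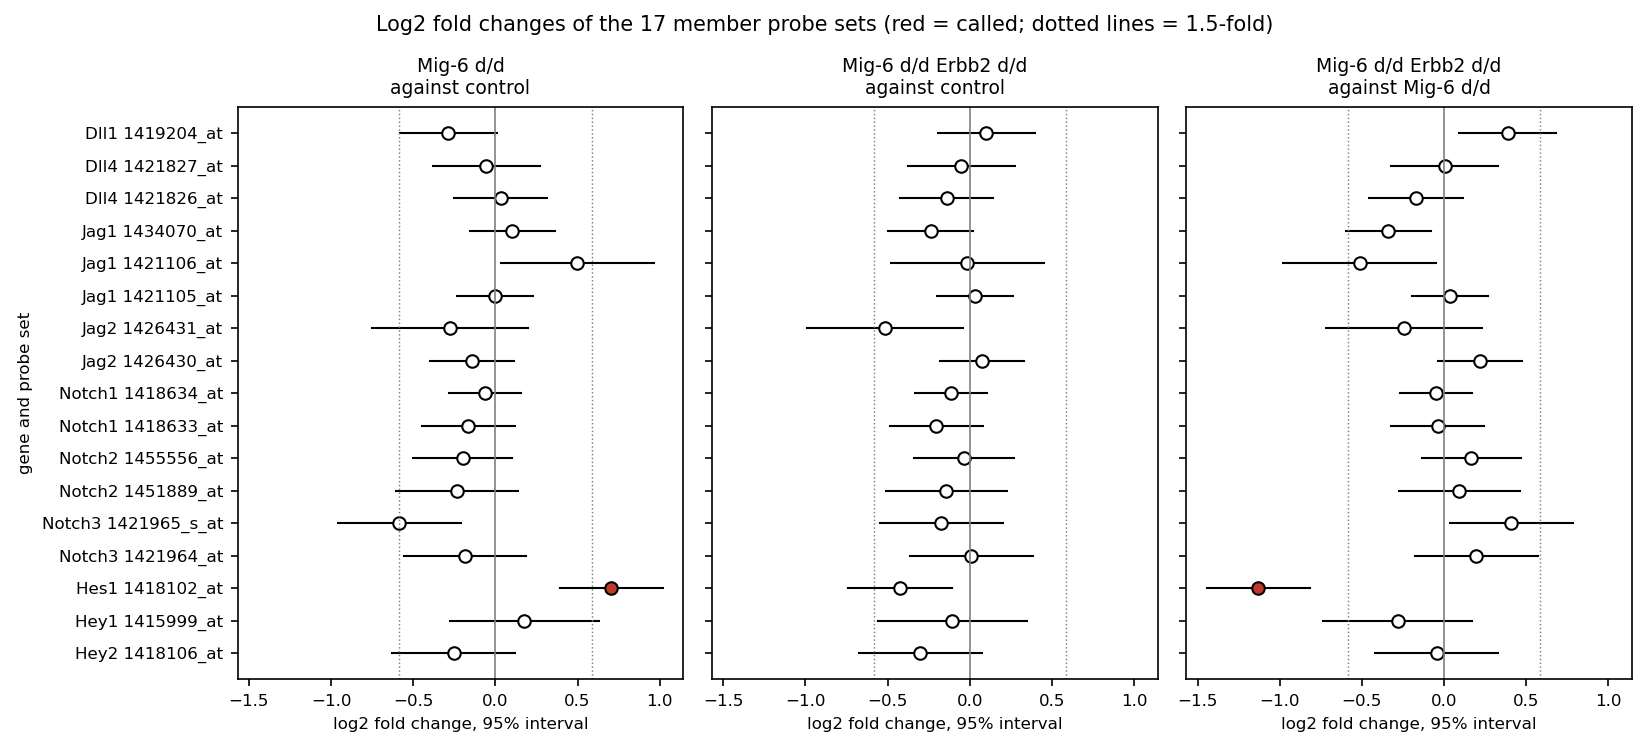
Log2 fold change (x axis) with its 95% interval from limma for each of the 17 member probe sets (y axis) in the 3 comparisons, with called probe sets in red and dotted lines at 1.5-fold. Hes1 is called in Mig-6 d/d against control (0.71) and in the double mutant against Mig-6 d/d (-1.13), and all other points are white.

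Among the receptors, Notch3 came closest to a call. Its brighter probe set (1421965_s_at, of a kind whose probes can match related transcripts) read 112.3, 121.8 and 105.1 in controls, 70.1, 62.1 and 97.8 in Mig-6 d/d, and 102.9, 113.0 and 85.9 in the double mutant. All Mig-6 d/d arrays were below all controls, replicate 3 by the least, and the double mutant overlapped with both groups. Mig-6 d/d differed from control by a log2 fold change of -0.58 ± 0.17 (limma adjusted p = 0.0903, 95% interval -0.96 to -0.21).

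Without Mig-6 d/d replicate 3, whose Errfi1 was near the control level, Notch3 was called decreased, at -0.77 (limma adjusted p = 0.0462), and it was then the called member in place of Hes1. In no other fit was it called, with adjusted p from 0.0684 to 0.395. The difference between the mutants, 0.41 ± 0.17, did not pass (limma adjusted p = 0.201, or 0.0551 without replicate 3). The dimmer Notch3 probe set (1421964_at) read 8.54 to 14.6 over all arrays and differed by -0.19 in Mig-6 d/d against control (limma adjusted p = 0.634).

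Markers of the cells around blood vessels and of muscle were lower in the same arrays. Of 7 pericyte markers 1 was called decreased in Mig-6 d/d, Kcnj8, a potassium channel gene (log2 fold change -0.90), and the pericyte sum was 2954 to 3216 in controls, 2102 to 2494 in Mig-6 d/d and 2376 to 2837 in the double mutant. Of 12 smooth muscle markers 1 was called decreased, Synpo2 (-0.93), with sums of 17330 to 22530, 11190 to 15980 and 20400 to 24900 in the same order. Between the mutants, 2 pericyte and 5 smooth muscle markers were called increased, led by Cspg4 (0.74) and by the actin gene Actg2 (1.17). Mig-6 d/d replicate 3, which had the highest Notch3 of its group, also had the highest pericyte sum of its group, but its smooth muscle sum (15660) was below that of replicate 1 (15980). Double mutant replicate 2, with the highest Notch3 of its group, had the highest pericyte sum (2837) and the lowest smooth muscle sum (20400) of that group. Control replicate 2 had the highest Notch3 and the highest smooth muscle sum (22530) of the controls. Its pericyte sum (3101) was below that of control replicate 1 (3216). With Mig-6 d/d replicate 3 left out, the calls in Mig-6 d/d against control were again 1 and 1, and in the double mutant against Mig-6 d/d they were 1 and 3. The part of these markers in the Notch3 values was not tested.

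Notch1 and Notch2 showed no difference beyond the spread of the arrays. Notch1, the receptor with a known part in stromal decidualization, read 169.4 to 204.7 in controls, 172.2 to 180.5 in Mig-6 d/d and 160.4 to 178.2 in the double mutant at its brighter probe set (1418634_at). Its log2 fold changes against control were -0.07 ± 0.10 in Mig-6 d/d, as against -0.11 ± 0.10 for the double mutant, with 95% intervals of -0.29 to 0.15 and -0.33 to 0.11, which lie within 1.5-fold either way. The dimmer probe set of Notch1 (1418633_at) read 27.8 to 41.5 over all arrays, differed by -0.17 and -0.21 and was not called either.

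Notch2 read 88.3, 93.4 and 98.8 in controls, 93.6, 67.7 and 85.0 in Mig-6 d/d and 94.0, 100.5 and 80.2 in the double mutant (1455556_at), and the 3 groups overlapped. The log2 fold change was -0.20 ± 0.14 in Mig-6 d/d (limma adjusted p = 0.505) and -0.04 ± 0.14 in the double mutant (0.982) against control. The other Notch2 probe set (1451889_at) read 4.11 to 6.78, below the median of all probe sets on every array, and can say little about the gene.

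Among the ligands, Jag1, which encodes a ligand of the Jagged type, was read by 3 probe sets. Its main probe set (1434070_at) read 155.6, 134.7 and 177.3 in controls, 181.3, 156.7 and 162.2 in Mig-6 d/d and 135.2, 134.4 and 125.0 in the double mutant. The double mutant was below every Mig-6 d/d array and overlapped with the controls. The difference between the mutants was -0.34 ± 0.12 and did not pass (limma adjusted p = 0.121), and the differences from control were 0.10 ± 0.12 (0.725) and -0.24 ± 0.12 (0.705).

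A second Jag1 probe set (1421106_at) differed in the same directions. It read 19.2, 14.4 and 24.8 in controls, 34.1, 25.4 and 22.4 in Mig-6 d/d and 21.9, 17.7 and 17.3 in the double mutant, again with every double mutant array below every Mig-6 d/d array. Its log2 fold changes were 0.50 ± 0.21 in Mig-6 d/d against control (limma adjusted p = 0.239) and -0.51 ± 0.21 in the double mutant against Mig-6 d/d (0.198), neither of which was called. Over the 9 arrays these probe sets had a Pearson r of 0.81. The last Jag1 probe set (1421105_at), at 4.53 to 5.65, was below the median of all probe sets on every array, and it correlated with the others at 0.29 and 0.28.

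Jag2, the other Jagged ligand, had 2 probe sets that differed in sign in both comparisons of the double mutant. At 1426431_at it read 26.4, 32.5 and 27.4 in controls, 20.2, 27.8 and 23.7 in Mig-6 d/d and 26.4, 21.9 and 14.0 in the double mutant. All double mutant arrays were below all controls, the nearest pair by less than 0.1, and the log2 fold change was -0.52 ± 0.21 (limma adjusted p = 0.596). At 1426430_at the same difference was 0.07 ± 0.11 (0.94) with values of 20.7 to 27.1 over all arrays, and the Pearson r between the probe sets was 0.23. Neither probe set was called in any comparison.

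Dll1 and Dll4 encode Delta-like ligands, and Dll4 is best known from endothelium. Dll1 read 15.03, 15.2 and 17.1 in controls, 14.0, 13.1 and 11.9 in Mig-6 d/d and 16.1, 20.5 and 14.7 in the double mutant (1419204_at). The Mig-6 d/d arrays were the lowest 3 of the 9, without overlap with either other group. The differences were small, -0.29 ± 0.13 in Mig-6 d/d against control (limma adjusted p = 0.293) and 0.39 ± 0.13 in the double mutant against Mig-6 d/d (0.122), and were not called. Dll4 read 10.3 to 14.6 at 1421827_at and 7.68 to 10.4 at 1421826_at over all arrays, with overlapping groups, log2 fold changes of -0.17 to 0.03 and a Pearson r of -0.34 between the probe sets.

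Endothelial markers were lower in Mig-6 d/d while Dll4 was not called. Of 15 endothelial markers 5 were called decreased in Mig-6 d/d against control, led by Tek (log2 fold change -1.04), Cdh5 (-0.88) and Erg (-0.83), and 6 were called increased in the double mutant against Mig-6 d/d. Their sum was 1650 to 1820 in controls, 962.8 to 1246 in Mig-6 d/d and 1462 to 1793 in the double mutant. Without Mig-6 d/d replicate 3 the counts were 5 and 7. Notch4, the receptor best known from endothelium and outside the 10 members, read 12.3 to 12.9, 9.83 to 12.9 and 11.4 to 17.6, and differed by -0.21 ± 0.16 in Mig-6 d/d (limma adjusted p = 0.547) and by 0.16 ± 0.16 in the double mutant (0.899) against control. Without replicate 3 its Mig-6 d/d value was -0.33 (limma adjusted p = 0.393).

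**Figure D3:**
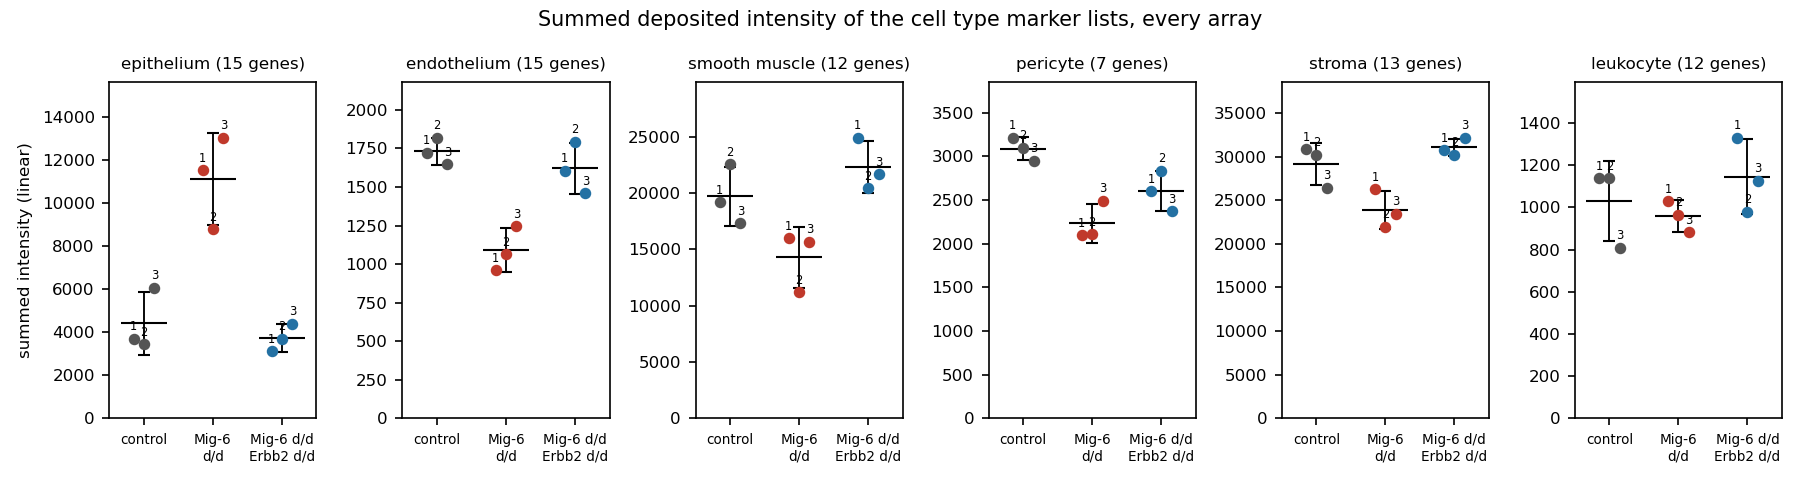
Summed deposited intensity (linear scale, starting at 0) of the measured genes of 6 cell type marker lists for each of the 9 arrays, with the replicate number above each point and the mean and SD of 3 arrays in black. The epithelial sum is highest in Mig-6 d/d (8798 to 13050) and the endothelial sum lowest there (962.8 to 1246), without overlap with the other groups, whereas the leukocyte sums overlap.

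The members as a whole were described by counts. In Mig-6 d/d against control, 5 of 17 probe sets were higher and 12 lower, with a median log2 fold change of -0.14 where the median over all probe sets was -0.02, and 3 of 17 (Dll1, Notch3 and Hes1) had arrays that did not overlap between the groups, against 21% of all probe sets. Between the double mutant and control, 4 were higher and 13 lower, with a median of -0.11 (0.003 over all probe sets), and 2 of 17 (Jag2 at 1426431_at and Hes1) did not overlap, against 11.7% of all. By limma, 2 of 17 had an unadjusted p under 0.05 in that comparison, as had 3437 of all 45037 probe sets. An unpaired t-test at an unadjusted p under 0.05 and above 1.5-fold also called 0. Between the mutants, 8 were higher and 9 lower, with a median of -0.04 (0.02 over all), and 5 of 17 (Hes1, Dll1, 2 of Jag1 and Jag2 at 1426430_at) did not overlap, against 26.9% of all. The 95% intervals of 10, 14 and 10 of the 17 probe sets in these comparisons lay wholly within 1.5-fold in either direction. Over all 45037 probe sets, 33241, 37036 and 32749 did in the same order. The comparisons share arrays, so their values stand side by side and are not independent.

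Leaving out Mig-6 d/d replicate 3 kept 5 member probe sets higher and 12 lower than in control, with a median log2 fold change of -0.13, and 5 of 17 (Hes1, Dll1, both of Notch3 and Jag1 at 1421106_at) then did not overlap, against 29.3% of all probe sets. Between the mutants 8 were again higher and 9 lower, with a median of -0.04, and 6 of 17 did not overlap, against 35.7% of all. In each comparison 1 of 17 was called, against 419 and 1458 of all 45037 probe sets. Apart from Hes1 and the brighter Notch3 probe set, the member probe sets stayed uncalled in both comparisons. Their log2 fold changes ran from -0.32 to 0.63 against control (limma adjusted p = 0.223 to 0.983) and from -0.65 to 0.33 between the mutants (0.172 to 0.954), with Jag1 at 1421106_at the farthest from 0 in both. Hey1 differed by 0.31 and -0.42, and Dll1 by -0.22 and 0.32, in the same order.

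Of 66 other Notch pathway genes measured, each read at its brightest probe set, 4 were called decreased in Mig-6 d/d against control and 0 increased. Over all 18193 genes, 1.8% were called decreased and 2.54% increased. Cntn1 and Ccn3, which encode a contactin on the cell surface and a secreted matrix protein and have been described as noncanonical ligands of Notch receptors, had the largest changes. Cntn1 read 102.1, 92.3 and 84.6 in controls, 47.5, 28.2 and 50.4 in Mig-6 d/d and 81.2, 102.1 and 78.5 in the double mutant, a log2 fold change of -1.19 ± 0.21 (limma adjusted p = 0.0179). Ccn3 read 61.7, 45.5 and 48.4 in controls, 25.4, 29.1 and 21.2 in Mig-6 d/d and 52.4, 47.0 and 53.8 in the double mutant, a log2 fold change of -1.04 ± 0.15 (limma adjusted p = 0.0104). For both genes every Mig-6 d/d array lay below all other arrays.

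The other called genes were Mib2, a ubiquitin ligase that acts on Notch ligands (log2 fold change -0.71 ± 0.15, limma adjusted p = 0.0343), and Dtx3, of the deltex family of ubiquitin ligases (-0.60 ± 0.14, limma adjusted p = 0.0478). In the 9 fits that left out 1 array, Ccn3 was called in 9, Cntn1 in 8, Mib2 in 5 and Dtx3 in 1. The count was 1 without control replicate 2, 2 without Mig-6 d/d replicate 1 or replicate 2, and 3 without Mig-6 d/d replicate 3, namely Ccn3 (-0.92), Cntn1 (-1.34) and Mib2 (-0.83), with Dtx3 at -0.70 (limma adjusted p = 0.0652). Over all probe sets, the fit without Mig-6 d/d replicate 3 called 419 in place of 1265.

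No gene of the other role lists was called in Mig-6 d/d against control. Beside Notch4 above, the smallest p in each belonged to Heyl, another HES and HEY family gene (log2 fold change -0.47, limma adjusted p = 0.0857), Poglut1, a glycosyltransferase of Notch (-0.34, 0.122), Aph1a, a subunit of gamma-secretase (0.45, 0.052), Rbpj itself (-0.34, 0.137) and Cir1, a corepressor that binds RBPJ (-0.50, 0.0336, below 1.5-fold). Of the noncanonical ligands 8 of 8 had a negative log2 fold change, with a median of -0.52, and of the 7 proteases 6 had a positive one, with a median of 0.26, where the median of all genes was -0.03.

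In the double mutant against Mig-6 d/d, 8 of the 66 genes were called increased and 1 decreased, against 3.73% increased and 3.75% decreased over all genes. The noncanonical ligands accounted for 4 of the increases, namely Cntn1 (log2 fold change 1.09), Ccn3 (1.03), Mfap2, a protein of elastic microfibrils (0.97), and Postn, the matrix protein periostin (0.73). The deltex genes accounted for 3, namely Dtx3 (0.65), Dtx4 (0.64) and Dtx1 (0.60), and Mib2 was the last (0.62). The other deltex genes listed were not called, and Dtx3l went the other way (-0.75, limma adjusted p = 0.0649), whereas Dtx2 was higher (0.34, 0.297). The decreased gene was Hes6, a HES family member described as an antagonist of HES1 (-0.67, limma adjusted p = 0.0153), which read 70.6, 71.9 and 85.6 in controls, 90.5, 101.5 and 106.8 in Mig-6 d/d and 71.2, 54.2 and 63.3 in the double mutant. Hes6 and Hes1 were thus both lower in the double mutant than in Mig-6 d/d, and all Mig-6 d/d arrays of both lay above all other arrays.

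Of these 9 calls, Ccn3 was made in all 9 fits that left out 1 array, Cntn1 in 8, Hes6 and Mfap2 in 7, Dtx4, Mib2 and Postn in 5, and Dtx1 and Dtx3 in 4. The count was 4 without Mig-6 d/d replicate 1, 5 without Mig-6 d/d replicate 3 (Ccn3 at 0.91, Cntn1 at 1.24, Dtx3 at 0.75, Mib2 at 0.74 and Postn at 0.86), and 3 without double mutant replicate 1 or replicate 2. Over all probe sets, the fit without Mig-6 d/d replicate 3 called 1458 in place of 2312. In the lists without a call, the smallest p belonged to Notch4 (log2 fold change 0.37, limma adjusted p = 0.22), Pofut1, a fucosyltransferase of Notch (0.32, 0.15), Adam10, the protease that makes the cut outside the membrane (-0.51, 0.0701), Rbpj (0.33, 0.126) and Hdac1, a histone deacetylase (-0.43, 0.0422, below 1.5-fold).

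**Figure D4:**
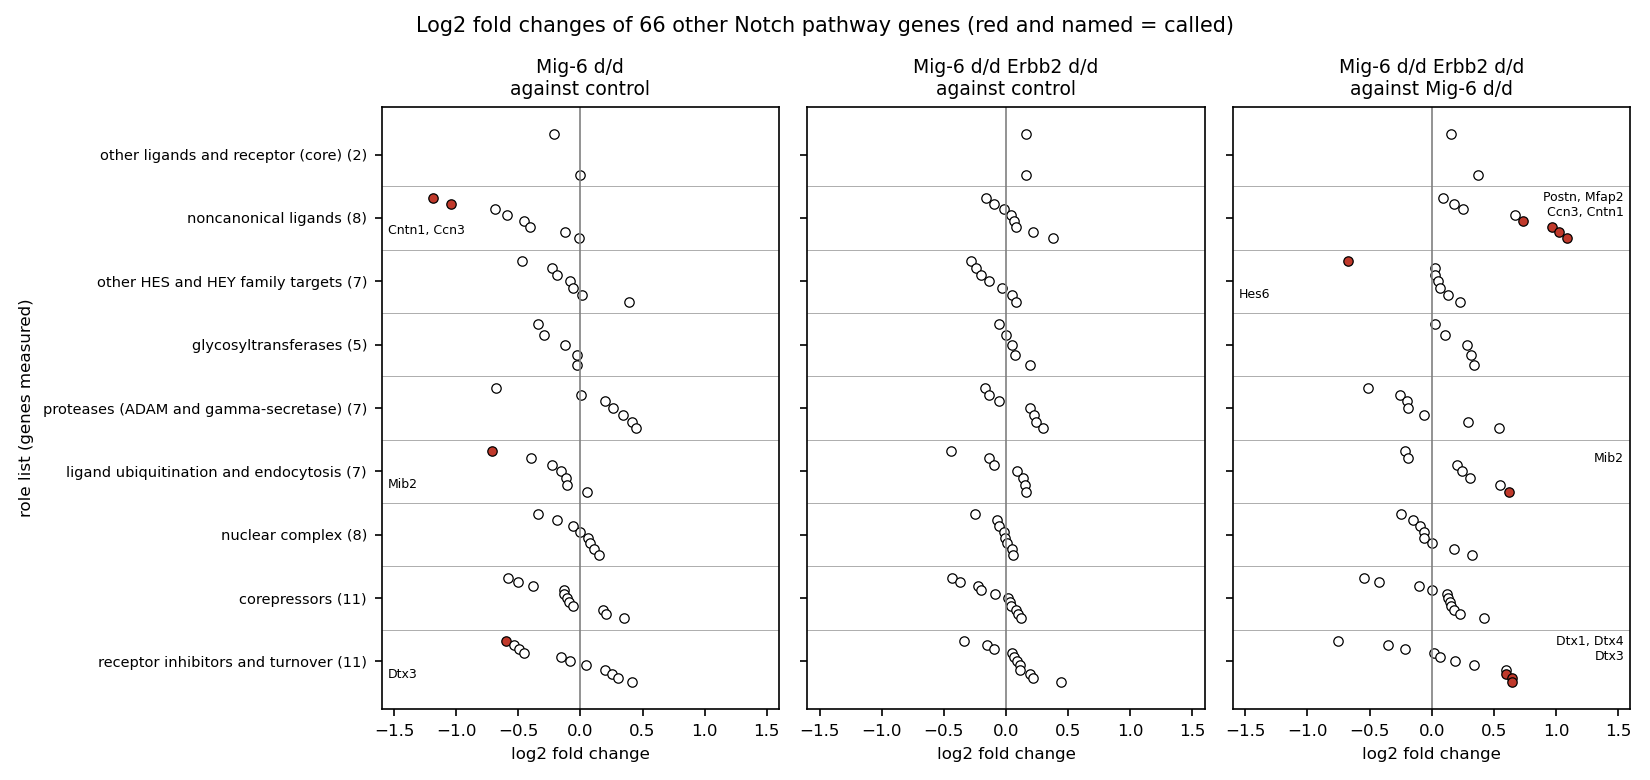
Log2 fold change (x axis) of 66 other Notch pathway genes in 9 role lists (y axis, with the number measured) in the 3 comparisons, where each point is a gene, points of a list are spread in order of their value, and called genes are red and named. The 4 genes called in Mig-6 d/d against control are all to the left of 0, and no point is red in the double mutant against control.

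Markers of stroma, the tissue that makes much of the uterine matrix, were lower in the same arrays as Cntn1, Ccn3 and Postn. Of 13 stromal markers 3 were called decreased in Mig-6 d/d against control, Nr2f2 (log2 fold change -0.77), Twist2 (-0.73) and Vim (-0.61), and 4 were called increased in the double mutant against Mig-6 d/d, led by Col1a1 (0.85), Nr2f2 (0.76) and Col6a1 (0.73). The stromal sum was 26460 to 30870 in controls, 21960 to 26260 in Mig-6 d/d and 30240 to 32180 in the double mutant. Without Mig-6 d/d replicate 3 the counts were 1 and 3. Of 12 leukocyte markers 1 was called, Csf1r (-0.67 in Mig-6 d/d against control, and 0 were called without replicate 3), and their sums overlapped between all groups, with S100a8 and Itgam at mean intensities below 6 in every group. The part of these markers in the values of the noncanonical ligands was not tested.

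In the double mutant against control, 0 of the 66 genes were called by limma or by the unadjusted t-test. Over all genes, limma called 0.209% increased and 0.198% decreased. Of the 66, 7 had an unadjusted p under 0.05 in limma, as had 1446 of all 18193 genes. The smallest p of each list belonged to Dll3 (log2 fold change 0.16), Mfap2 (0.38), Hes6 (-0.28), Pofut1 (0.20), Psen2 (0.30), Epn2 (-0.44), Snw1 (-0.25), Cir1 (-0.37) and Numbl (0.44), with limma adjusted p of 0.32 to 0.808. The 95% intervals of 57 of the 66 genes lay within 1.5-fold either way, as did those of 14548 of all 18193 genes.

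Across the 9 arrays, the patterns of the members were set against those of all genes with a mean above the median of all probe sets. Pearson r is given as a description, without a test, over 9 arrays that share their groups and normalization. Hes1 was most like Arhgap44 (r = 0.98), Myo5b (0.98) and Llgl2 (0.97), of which the latter pair encode a motor and a polarity protein of epithelial cells. Notch3 was most like Sema3g (0.98), Col4a6 (0.97) and Itga1 (0.96), which encode a semaphorin, a basement membrane collagen and a collagen receptor. Jag1 was most like Atp11a (0.98), Paip1 (0.98) and Mllt10 (0.97).

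For the other members the closest genes were Lrrc56, Zfp287 and Appl1 for Dll1 (0.94 to 0.93), Bahcc1, T2 and Pde10a for Dll4 (0.89 to 0.85), and Ndufs7, Cetn2 and B3galnt2 for Jag2 (0.97 to 0.93). They were Aldh1a1, Mitf and Slc35e2 for Notch1 (0.95 to 0.94), Cdyl2, Ptpn14 and Fam161a for Notch2 (0.98 to 0.94), Med10, 4933434E20Rik and Cbr4 for Hey1 (0.97 to 0.94), and Col11a1, 1600014C23Rik and Rbp4 for Hey2 (0.93 to 0.90). For most members 11970 genes were compared, and members without a called change, such as Notch2 and Hey1, also had a closest gene at 0.98 and 0.97. Among the members themselves, the highest r was 0.77 between Jag1 and Hes1, followed by 0.70 between Notch2 and Notch3, and the lowest was -0.72 between Notch2 and Hey1. Notch3 and Hes1 had an r of -0.64.

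**Figure D5:**
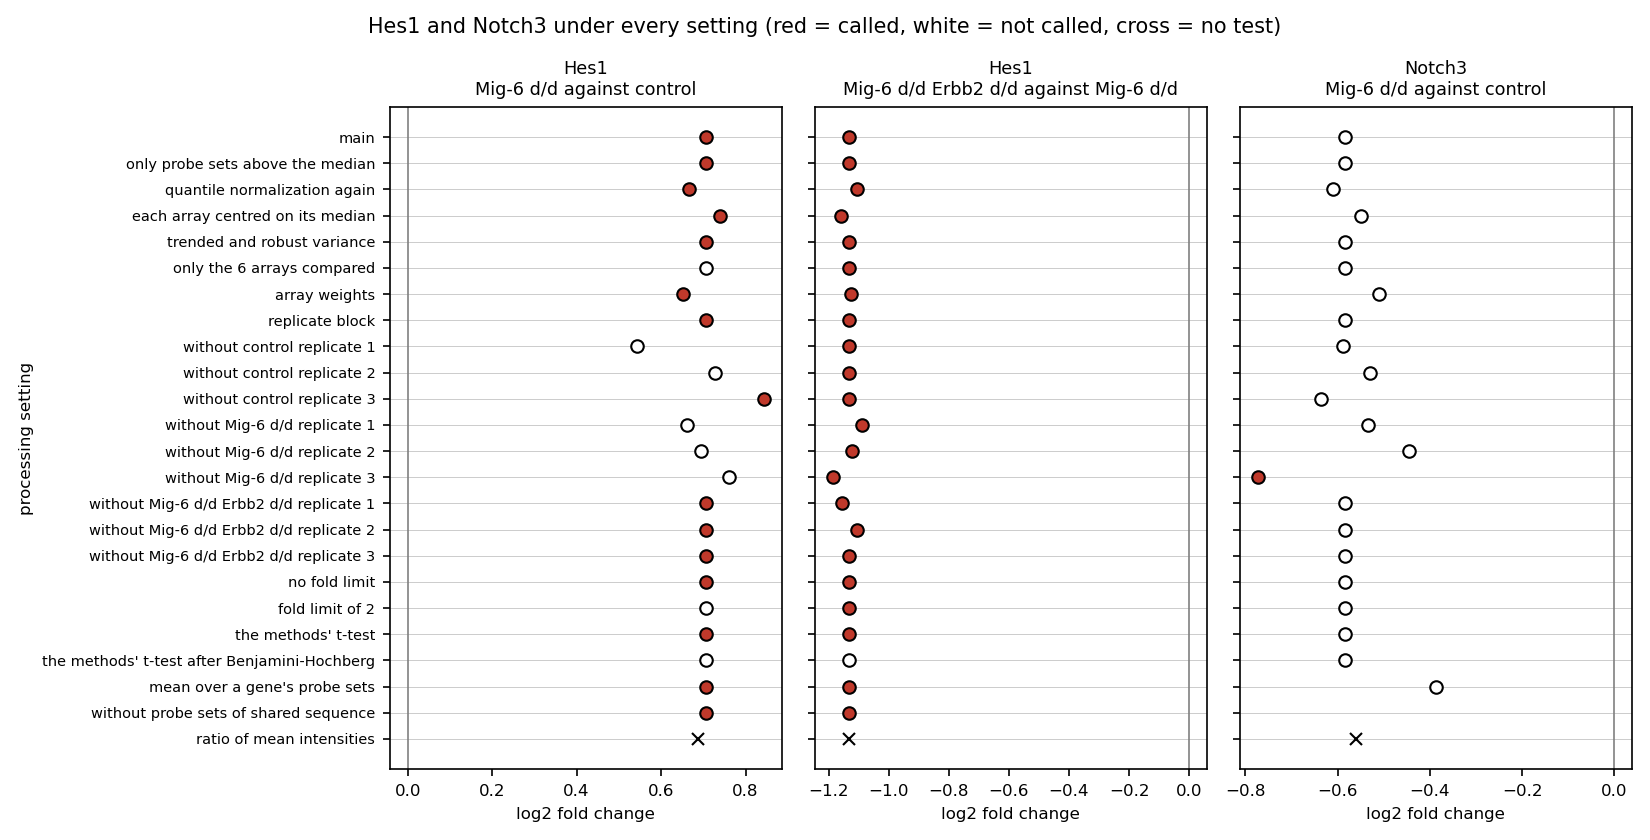
Log2 fold change (x axis) of Hes1 in Mig-6 d/d against control, of Hes1 in the double mutant against Mig-6 d/d, and of Notch3 in Mig-6 d/d against control under each processing setting (y axis), where red points are called, white points are not and crosses have no test. Hes1 in the double mutant against Mig-6 d/d is white only for the t-test after adjustment, its increase over control is white in 8 settings at values of 0.54 to 0.76, and Notch3 is red only without Mig-6 d/d replicate 3 (-0.77).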

How the data were processed

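Intensities of 45037 probe sets on Affymetrix mouse GeneChip arrays were deposited by the authors on a linear scale after robust multi-array averaging (RMA) and quantile normalization, with no version given in the sources used here. Intensities ranged from 2.11 to 11548.76. Scanner files were not used here, which leaves no detection call per probe set, and precision is limited by the small number of arrays. Log2 values were computed from the deposited intensities and tested with limma 3.58.1 in R 4.3.3 (lmFit, eBayes), in 1 model of the 9 arrays with 3 groups and 3 comparisons, with adjustment by Benjamini-Hochberg over all probe sets. The script was tested on simulated data. Probe sets took their gene from the platform annotation: 34945 had 1 symbol, 932 several and 9160 were unnamed here, and 34741 matched the RefSeq gene table (GRCm38.p6), which changed 0 symbols. A gene was read at its brightest probe set by mean log2 intensity.

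Named were the 10 members, Errfi1, Erbb2, Notch4, called genes of the role lists (or the gene with the smallest p in a list without a call), the 3 most alike genes per member, and up to 3 called markers per list. The uncalled deltex genes Dtx2 and Dtx3l were named beside the called ones. The lists of role genes (66 genes measured) and of markers, and the members, were chosen with earlier results of these data known. No pair of arrays of a group looked like a duplicate: the highest Pearson r within a group was 0.994, and at most 0.711% of values were identical between arrays of a group. The settings varied were a limit on dim probe sets, 2 other normalizations, the variance model, fits on 6 arrays and weights per array. Further settings were a block by replicate number, leaving out each array, other fold limits and an unpaired t-test. Other ways to combine probe sets and ratios of mean intensities were also used. The study's methods name such a t-test for data with 2 groups and name no test for the arrays. Counts of called markers without Mig-6 d/d replicate 3 were chosen after seeing the data. Figures used Python 3.11.15 and matplotlib 3.10.9.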

Additional observations from a re-analysis of the deposited data

How the results depend on the processing

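The count of called members in Mig-6 d/d against control was 1. It became 0 with only the 6 arrays compared, with a fold limit of 2 and with the t-test after Benjamini-Hochberg adjustment. It was 0 to 1 when each array was left out in turn. For the other pathway genes in the same comparison, 4 became 2, 2 and 0 under these alternatives, and 1 to 5 when arrays were left out. In the double mutant against Mig-6 d/d, the member count of 1 became 0 with the adjusted t-test and stayed at 1 in every fit that left out an array, and the count of 9 other pathway genes became 2 with a fold limit of 2, 0 with the adjusted t-test, and 3 to 11 when arrays were left out. In the double mutant against control, members and other pathway genes stayed at 0 under every alternative. Some counts rose instead. With only the 6 arrays compared, the other pathway genes called between the mutants went from 9 to 11. With only probe sets above the median, which kept 59 of these genes, the counts went from 4 to 6 in Mig-6 d/d against control and from 9 to 11 between the mutants. Causes of these changes were not tested.

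Of the 30 member gene results (10 genes in 3 comparisons), 28 were not called and 27 of these stayed uncalled under 22 to 23 alternatives each, the exception being Notch3 without Mig-6 d/d replicate 3. Of the 28, 9 changed sign under at least 1 alternative, which did not happen to Hes1 or Notch3. The replicate number was also fitted as a block. The numbers were not treated as pairs, since deviations from the group means correlated at -0.13 to 0.20 over the 9 same-number pairs of arrays and only 3 pairs were over 0.1. With the replicate block, the called members were 1, 0 and 1 and the other pathway genes 3, 0 and 8 in the 3 comparisons, and the block took Mib2 off the calls in both comparisons with Mig-6 d/d. Without detection calls, the dim probe sets of Hey2, Dll4, Jag1 (1421105_at) and Notch2 (1451889_at) cannot show whether a change was absent or too small to read.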
